A study of Mus musculus with 2 samples.

Results

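The interferon-responding CD8 T cells were the 555 of 18512 splenic CD8 T cells that held the most transcripts of 7 interferon response genes. They came from a droplet single-cell RNA sequencing study of CD8 T cells of mice given dehydroepiandrosterone (DHEA) or its carrier oil. DHEA is an adrenal androgen precursor, and its injection into mice is used to model polycystic ovary syndrome. The DHEA library was made from wild type C57BL/6 mice that received 40 mg/kg DHEA in 20 µL sesame oil under the skin each day for 21 days. The CTRL library was made from wild type C57BL/6 mice that received the same volume of sesame oil on the same schedule. In both groups CD8 T cells were enriched from spleen suspensions with magnetic beads after lysis of the red cells. The isolated cells are described as pooled, and the sources used here do not give the number, sex or age of the animals. With 1 library per group no difference between DHEA and CTRL has a replicate check, so no p-values are given. Intervals below are 95% intervals that cover counting error only.

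Interferons are secreted antiviral cytokines. Type I interferons bind the receptor pair Ifnar1 and Ifnar2, and the kinases Jak1 and Tyk2 then activate transcription factors, among them Stat2, which join Irf9 on a DNA element called the interferon-stimulated response element (ISRE). The target genes block viral entry, RNA translation and genome copying, sense foreign nucleic acids and raise antigen display on MHC class I. Interferon gamma acts through Ifngr1 and Ifngr2, and its target genes hold another element, called GAS. In mice a small group of T cells with high levels of these genes is commonly seen in spleen data, also without infection.

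The cells were chosen from base cells, which had at least 200 detected genes, under 10% mitochondrial transcripts, at least 1500 unique molecular identifiers (UMIs, each standing for 1 captured transcript), and at least 1 UMI of Cd8a or Cd8b1 and 1 of Cd3d, Cd3e or Cd3g. There were 9849 base cells among 12128 barcodes of the DHEA library and 8663 among 9495 barcodes of the CTRL library. Each base cell was scored by its summed UMIs of Ifit1, Ifit3, Ifit3b, Isg15, Usp18, Rtp4 and Irf7 per 10000 UMIs of the cell. The 3% of base cells of both libraries together with the highest scores were the members. The lowest member score was 12.23 and the highest score outside was 12.22, so the threshold cuts through a continuous range. The depth differed between groups, with a median of 4185 UMIs per member in DHEA and 5392 in CTRL, against 4877 and 5630 UMIs per other base cell in DHEA and CTRL. The libraries had 51 barcodes in common, and 0 of the members carried one of them.

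The promoters of several genes that marked these cells held copies of the ISRE core, and 4 of them are shown so that the element can be read beside the levels of its genes. The windows below run from 250 bases before the annotated gene start to 50 bases after it, 5′ to 3′ on the strand of the gene, from RefSeq on GRCm38.p6. The UMI files use another build (mm39), so windows were matched to genes by symbol alone. Capitals mark every match of GAAANNGAAA or, on the other strand, TTTCNNTTTC. They belong to a pair of score genes and to Rsad2 and Cxcl10, which took no part in the choice of cells. All 4 windows shown hold a match, while the windows of Cmpk2, Isg20 and Ifit2, also high in members, hold none.
Ifit1 (a score gene; chr19:34640639-34640938, plus strand): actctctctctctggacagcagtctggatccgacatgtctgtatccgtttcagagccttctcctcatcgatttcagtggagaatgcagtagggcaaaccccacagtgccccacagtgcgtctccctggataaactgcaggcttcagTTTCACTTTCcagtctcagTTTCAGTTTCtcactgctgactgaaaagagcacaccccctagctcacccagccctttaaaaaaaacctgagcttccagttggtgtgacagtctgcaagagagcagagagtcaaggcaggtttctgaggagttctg
Isg15 (a score gene; chr4:156200769-156201068, minus strand): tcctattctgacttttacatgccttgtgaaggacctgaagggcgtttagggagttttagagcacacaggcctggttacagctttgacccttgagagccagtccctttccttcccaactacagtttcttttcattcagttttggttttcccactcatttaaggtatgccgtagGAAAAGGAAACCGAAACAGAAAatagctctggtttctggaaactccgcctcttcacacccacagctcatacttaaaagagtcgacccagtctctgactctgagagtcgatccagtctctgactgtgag
Rsad2 (outside the score; chr12:26456403-26456702, minus strand): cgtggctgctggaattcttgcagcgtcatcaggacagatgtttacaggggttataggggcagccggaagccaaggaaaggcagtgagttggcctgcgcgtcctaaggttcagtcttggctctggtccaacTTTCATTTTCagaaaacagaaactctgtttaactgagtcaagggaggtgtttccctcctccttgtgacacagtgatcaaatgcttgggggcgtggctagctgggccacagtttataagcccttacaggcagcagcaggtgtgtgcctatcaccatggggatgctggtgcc
Cxcl10 (outside the score; chr5:92348840-92349139, minus strand): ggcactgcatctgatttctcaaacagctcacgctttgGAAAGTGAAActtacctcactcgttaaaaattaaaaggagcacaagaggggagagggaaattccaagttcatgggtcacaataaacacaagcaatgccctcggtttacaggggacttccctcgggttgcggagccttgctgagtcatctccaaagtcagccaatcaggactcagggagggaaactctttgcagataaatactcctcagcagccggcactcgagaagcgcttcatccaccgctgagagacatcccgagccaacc
In Ifit1, which encodes an RNA-binding block of viral translation, the matches TTTCACTTTC and TTTCAGTTTC began at positions -104 and -85 from the gene start. In Isg15, which encodes a ubiquitin-like protein tag, 3 matches at -78, -72 and -66 overlapped in 1 run. Rsad2 had 1 match at -120 and Cxcl10 had 1 at -213. Of the 7 score genes 5 had a window, and 4 of these 5 (80%) held the element, with no match in the Irf7 window.

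The same element was counted over all genes measured, those with at least 200 UMIs over all base cells. Of 57 interferon genes outside the score that were at least 2-fold higher in members in both libraries and had a window, 34 (59.6%) held an ISRE match. Of 54 interferon genes outside the score that did not reach that size, 15 (27.8%) held one. Of 33 genes outside the interferon lists that did reach it and had a window, 7 (21.2%) held one. Among all 8136 measured genes with a window 323 (3.97%) did, and among all 32851 windows 1131 (3.44%). The GAS element TTCNNNGAA stood in 26.3% of the 57 windows and in 8.31% of the 8136. The ISRE letters read backwards, AAAGNNAAAG or CTTTNNCTTT, stood in 5.26% of the 57 and in 3.15% of the 8136. Of the 27 genes at least 2-fold lower in members that had a window, 0 held an ISRE match. A match is a string of letters in a window and is not evidence of binding.

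The 7 score genes chose the cells, so their levels are a description. Levels are given as CPM, the share of a gene among the UMIs summed over a group of cells, scaled to 1000000. Isg15 stood at 897 CPM in DHEA members and 52.2 CPM in other DHEA base cells. In CTRL it stood at 860 CPM in members and 37.4 CPM in other base cells. Ifit1 had 285 CPM in DHEA members and 16.3 CPM in other DHEA cells, against 409 CPM in CTRL members and 13.4 CPM in other CTRL cells. Ifit3, a partner of Ifit1 in RNA binding, had 312 CPM in DHEA members and 13.3 CPM in other DHEA cells, against 366 CPM in CTRL members and 10.4 CPM in other CTRL cells. Its near copy Ifit3b, between which and Ifit3 reads may be split, had 69.3 CPM in DHEA members and 104 CPM in CTRL members. Usp18, which strips Isg15 from proteins and dampens the type I receptor, had 222 CPM in DHEA members and 261 CPM in CTRL members. Rtp4, a receptor transporter protein with antiviral activity, had 264 CPM in DHEA members and 251 CPM in CTRL members. Irf7, a transcription factor for type I interferon genes, had 229 CPM in DHEA members and 224 CPM in CTRL members. The libraries thus differed most in Ifit1 and Ifit3b among members and least in Irf7.

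The score of a single member rested on few transcripts. Members held a median of 8 score UMIs in DHEA (from 2 to 54) and 11 in CTRL (from 3 to 50). At least 3 different score genes were detected in 222 of 276 DHEA members (80.4%) and in 259 of 279 CTRL members (92.8%), against 4.65% of other base cells in DHEA and 4.51% in CTRL. A single gene gave over 50% of the score UMIs in 29.7% of DHEA members and 22.2% of CTRL members. Isg15 was most often that leading gene, with more UMIs than any other score gene in 50.4% of DHEA members and 51.6% of CTRL members. Among other base cells, 52.1% in DHEA and 56.7% in CTRL had no score UMI at all.

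**Figure D1:**
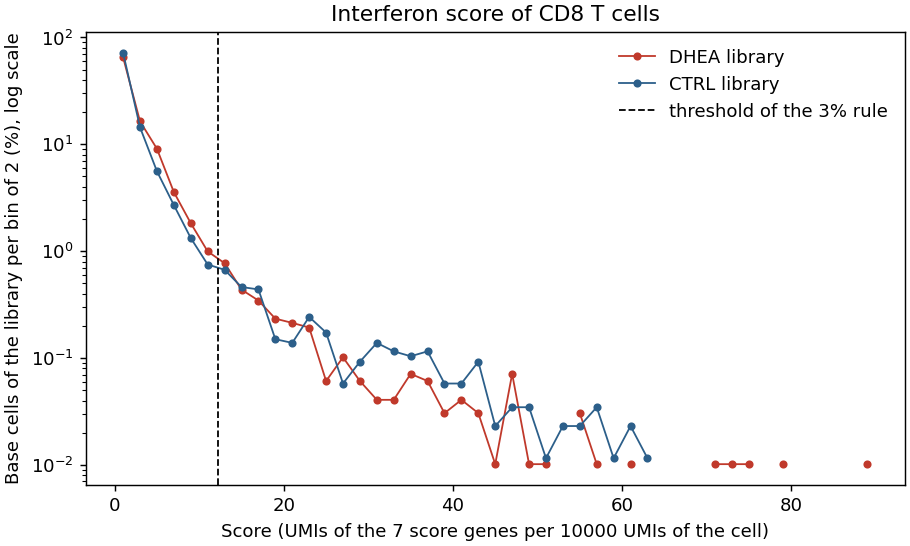
Distribution of the interferon score (x axis, UMIs of the 7 score genes per 10000 UMIs of the cell) over base cells, as the percent of each library's base cells per score bin (y axis, log scale), for the DHEA library (red) and the CTRL library (blue). Both curves decline with no gap at the dashed threshold of 12.23, and the DHEA curve lies above the CTRL curve just below the threshold while the CTRL curve lies mostly above it at scores of 30 to 45.

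The curves of the score show no separate peak of cells, so the group is the upper end of a range and not a cluster. Members made up 2.80% of DHEA base cells (276 of 9849, 2.49 to 3.15%) and 3.22% of CTRL base cells (279 of 8663, 2.86 to 3.61%). The difference of DHEA minus CTRL was -0.418 percentage points (Newcombe interval -0.918 to 0.0741), which includes 0. It left out 0 with the top 1% of cells, at -0.443 points (-0.743 to -0.155), and with Isg15 left out of the score, at -0.657 points (-1.16 to -0.164). Within 5 bins of cell depth the share was 3.36% in DHEA and 3.42% in CTRL in the shallowest bin and 2.16% in DHEA and 3.49% in CTRL in the deepest. The sign of the difference was negative in 4 of 5 depth bins, and in the deepest bin its interval (-2.41 to -0.251) left out 0. When members also had to show at least 3 score genes, the difference was -0.736 points (-1.20 to -0.275), a requirement that deeper cells meet more easily.

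To remove depth from the count, each base cell was thinned to 1500 UMIs. At least 1 score UMI was then left in 23.5% of DHEA and 19.5% of CTRL base cells, against 49.4% and 45.1% in DHEA and CTRL before thinning. At least 2 were left in 5.62% of DHEA cells and 5.60% of CTRL cells. At least 4 were left in 1.06% of DHEA cells and 1.44% of CTRL cells, a difference of -0.387 points (-0.716 to -0.0671). At least 5 were left in 0.538% of DHEA cells and 0.854% of CTRL cells, a difference of -0.316 points (-0.567 to -0.0769). Cells with a trace of the score were thus more frequent in the DHEA library, and cells with a strong score were less frequent in it, both beyond counting error. Free RNA also gives single UMIs in droplets, and 0 barcodes with B cell markers and without any CD3 or CD8 UMI were found from which that level could be read.

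**Figure D2:**
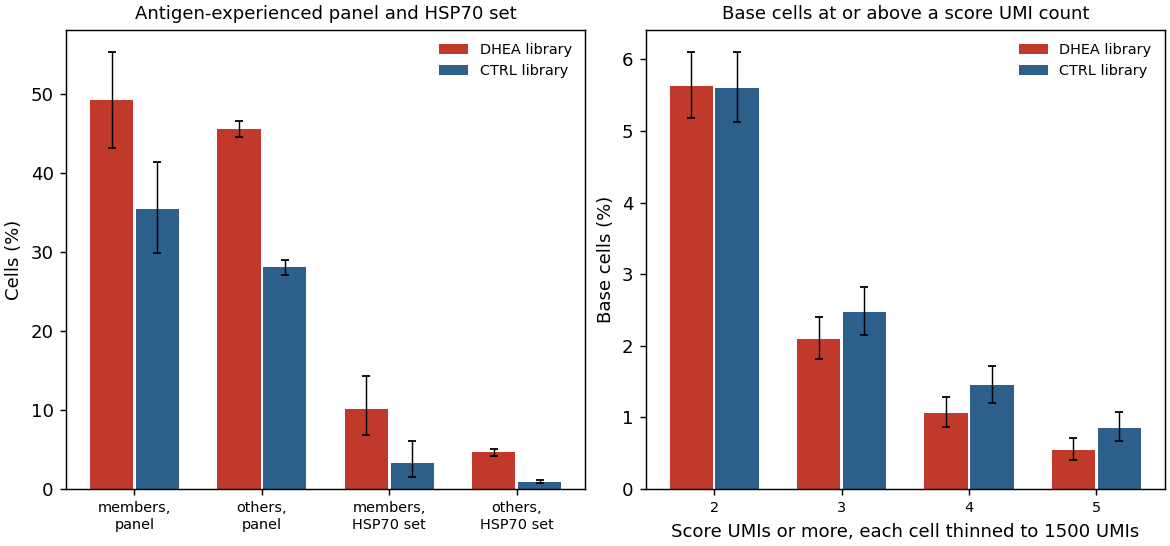
Left, percent of cells with the antigen-experienced panel or in the HSP70 set (y axis) for members and other base cells. Right, percent of base cells that kept at least 2, 3, 4 or 5 score UMIs after thinning each cell to 1500 UMIs. DHEA bars (red) stand left of CTRL bars (blue), with 95% exact binomial intervals for counting error; DHEA bars are higher on the left, and on the right they are level with CTRL at 2 UMIs and lower at 4 and 5 UMIs.

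Interferon response genes that took no part in the score were also high in members. The ratio of members over other base cells was computed per library from the summed UMIs, for 10486 measured genes outside the score. Of these, 121 (1.15%) were at least 2-fold higher in members in both libraries. Of 142 measured genes on the interferon lists 77 were among them, so the lists held 63.6% of the 121. In all, 136 of the 142 were higher in members in both libraries at any size, where 21.5% of all measured genes were. The median log2 ratio over the 142 was 1.18 in DHEA and 1.52 in CTRL, against -0.04 and -0.06 in DHEA and CTRL over all measured genes. On the lists 0 genes were at least 2-fold lower. The lists were chosen with earlier results of these data known, and other genes of the same cells are no independent check of the choice of cells.

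**Figure D3:**
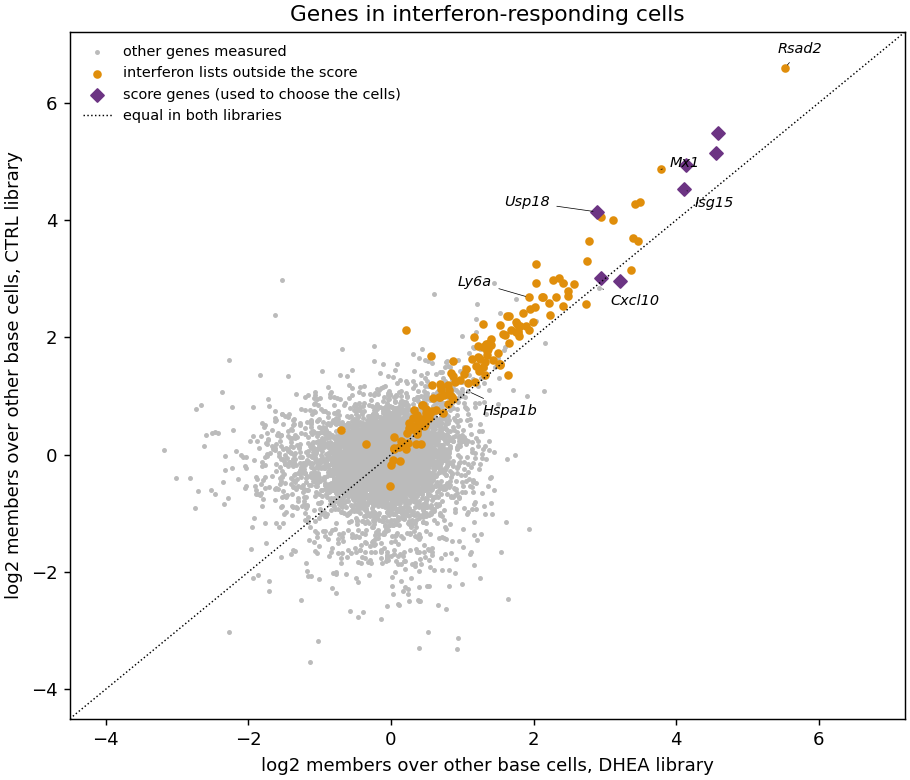
Log2 ratio of members over other base cells in the DHEA library (x axis) and in the CTRL library (y axis), 1 point per measured gene, with score genes as purple diamonds, interferon list genes outside the score in orange and all other genes in grey. The orange points lie mostly right of and above 0, led by Rsad2 at 5.53 in DHEA and 6.59 in CTRL, and 128 of 142 lie above the dotted line of equal ratios.

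Antiviral effectors, the enzymes and blocking proteins that act on viruses directly, had 30 of 47 measured genes at least 2-fold higher in members in both libraries. Rsad2, which encodes viperin, an enzyme that makes a chain-ending nucleotide, had 75 UMIs in DHEA members (59.8 CPM) and 62 in all other DHEA cells (1.30 CPM). In CTRL it had 147 UMIs in members (95.3 CPM) and 47 in all other cells (0.987 CPM). Its log2 ratio of members over others was 5.53 in DHEA (5.02 to 6.03) and 6.59 in CTRL (6.11 to 7.10), the highest of all genes named by rule in both libraries. Most Rsad2 transcripts of either library were therefore found in members, in 47 of 276 DHEA members and 86 of 279 CTRL members.

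Cmpk2, a mitochondrial nucleotide kinase encoded beside Rsad2, had a log2 ratio of 3.49 in DHEA and 4.31 in CTRL. Mx1, a dynamin-like GTPase gene, stood at 60.6 CPM in DHEA members and 4.40 CPM in other DHEA cells. In CTRL it stood at 83.0 CPM in members and 2.86 CPM in other cells. Mx2, its relative, had 3.42 in DHEA and 4.27 in CTRL as log2 ratios. Transcripts of both Mx genes were high in members of both libraries, with the larger ratio in CTRL. The oligoadenylate synthetases, which activate RNA decay, followed with log2 ratios of 3.39 in DHEA and 3.70 in CTRL for Oas2, 2.74 and 3.30 for Oas1a, and 2.74 and 2.57 for Oas3. The related Oasl2 had 3.12 in DHEA and 3.99 in CTRL, and Oasl1, a brake on Irf7 translation, 2.94 in DHEA and 4.05 in CTRL. Isg20, an RNA exonuclease, had 3.47 in DHEA and 3.65 in CTRL. Ifit2, which lies beside Ifit1 and was left out of the score, had 136 CPM in DHEA members and 25.5 CPM in other DHEA cells, against 123 CPM in CTRL members and 16.2 CPM in other CTRL cells.

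Nucleic acid sensors had 12 of 16 measured genes at least 2-fold higher in members. Ifih1, the receptor for long double-stranded RNA, had 97.2 CPM in DHEA members and 16.4 CPM in other DHEA cells, against 99.9 CPM in CTRL members and 13.3 CPM in other CTRL cells. Dhx58, a helper of Ifih1, had a log2 ratio of 3.36 in DHEA and 3.14 in CTRL. Zbp1, a sensor of left-handed nucleic acids that can start cell death, had 2.31 in DHEA and 2.69 in CTRL. Tlr7, a receptor for single-stranded RNA, had 2.35 in DHEA and 3.01 in CTRL, from 17 UMIs in DHEA members and 18 in CTRL members. Sensors of RNA and of unusual nucleic acid structures were thus high together in members of both libraries.

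The inducible GTPases, which attack the vacuoles of microbes within cells, had 14 of 16 measured genes at least 2-fold higher. Gbp6 had a log2 ratio of 2.49 in DHEA and 2.80 in CTRL, Iigp1 2.27 in DHEA and 2.98 in CTRL, Igtp 1.99 in DHEA and 2.27 in CTRL and Tgtp1 1.85 in DHEA and 2.41 in CTRL. Members of this family are alike in sequence, so reads may be split between copies. The list of ubiquitin ligases, TRIM proteins and ADP-ribosyltransferases had 12 of 22 measured genes at least 2-fold higher. In it Parp12 had 2.49 in DHEA and 2.71 in CTRL, and Rnf213, a very large ubiquitin ligase that coats microbes, had 2.12 in DHEA and 2.68 in CTRL. Xaf1, a promoter of cell death, had 147 CPM in DHEA members and 27.4 CPM in other DHEA cells, against 168 CPM in CTRL members and 29.1 CPM in other CTRL cells.

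Schlafen and Ly6 genes, which include growth regulators and surface proteins of T cells, had 5 of 10 measured genes at least 2-fold higher. Slfn5 had 139 CPM in DHEA members and 20.2 CPM in other DHEA cells, against 279 CPM in CTRL members and 22.3 CPM in other CTRL cells. Ly6a, which encodes the surface antigen Sca-1, had 268 CPM in DHEA members and 70.0 CPM in other DHEA cells, against 132 CPM in CTRL members and 20.5 CPM in other CTRL cells. Ly6c2, a surface marker of memory and interferon-exposed CD8 T cells, differed less, with log2 ratios of 0.49 in DHEA and 0.72 in CTRL.

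Genes of MHC class I display differed little but all to the same side. All 21 measured genes were higher in members in both libraries, and 1 of them was at least 2-fold higher. That gene was H2-T24, a nonclassical class I gene, with 25 UMIs in DHEA members and 50 in CTRL members and log2 ratios of 2.13 in DHEA and 2.69 in CTRL. H2-T22, another nonclassical gene, had 0.70 in DHEA and 1.12 in CTRL. Tapbp, which loads peptides, had 0.63 in DHEA and 0.77 in CTRL, and Psmb10, a subunit of the immunoproteasome, had 0.55 in DHEA and 0.72 in CTRL. The median over the list was 0.36 in DHEA and 0.45 in CTRL.

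Of the pathway that carries the signal, the factors Stat2 and Irf9 were high in members, while most other components differed less. Stat2 stood at 63.8 CPM in DHEA members and 18.9 CPM in other DHEA cells, against 93.4 CPM in CTRL members and 19.4 CPM in other CTRL cells. Its log2 ratio was 1.76 in DHEA (1.41 to 2.09) and 2.26 in CTRL (2.00 to 2.52). Irf9, its DNA-binding partner, had 1.17 in DHEA (0.85 to 1.48) and 1.24 in CTRL (0.98 to 1.48). Of 10 measured genes of the signalling list 3 were at least 2-fold higher in both libraries, Stat2 and Irf9 among them. Over these 10 genes the median log2 ratio was 0.58 in DHEA and 0.75 in CTRL. Irf1, the main early factor after interferon gamma, had 0.22 in DHEA and 0.37 in CTRL, Irf2 had 0.48 in DHEA and 0.52 in CTRL, and the kinase Jak1 had 0.03 in DHEA and -0.10 in CTRL.

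Of the receptors, Ifnar1 had a log2 ratio of 0.10 in DHEA (-0.26 to 0.44) and 0.48 in CTRL (0.18 to 0.77). Ifnar2 had 0.12 in DHEA and 0.25 in CTRL. The interferon gamma receptor chain Ifngr1 had -0.15 in DHEA and -0.13 in CTRL, and Ifngr2 had 0.07 in DHEA and -0.28 in CTRL. None of these 4 receptor chains was at least 2-fold higher or lower in either library. Transcripts of the ligands were nearly lacking. Ifnb1, Ifna1, Ifna4, Ifnl2 and Ifnl3 had 0 UMIs in the base cells of both libraries, and Ifna2 had 1 UMI in DHEA members, 2 in other DHEA cells and 0 in CTRL.

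Ifng, the gene of interferon gamma and itself a T cell product, was the ligand with counts. It had 42 UMIs in DHEA members (33.5 CPM) and 645 in other DHEA cells (13.5 CPM). In CTRL it had 24 UMIs in members (15.6 CPM) and 397 in other cells (8.34 CPM). Its log2 ratio was 1.31 in DHEA (0.82 to 1.76) and 0.90 in CTRL (lower bound 0.24), and 22 of 276 DHEA members and 18 of 279 CTRL members carried its UMIs. Usp18, which dampens the type I receptor, is a score gene and is not counted among the feedback genes here. Of these feedback genes, 0 of 13 measured were at least 2-fold higher in both libraries. Usp25, a deubiquitinase, came nearest, with 0.76 in DHEA and 1.12 in CTRL. Socs1, an inhibitor of Jak kinases, had 0.58 in DHEA and 1.56 in CTRL, and Socs3, its relative, had 0.31 in DHEA and 0.86 in CTRL.

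Outside the lists 44 genes were at least 2-fold higher in both libraries, and those named here other than Cxcl10 were picked after their values were seen. Cxcl10, a chemokine that draws Cxcr3-bearing T cells, had 127 CPM in DHEA members and 16.7 CPM in other DHEA cells, against 73.3 CPM in CTRL members and 10.2 CPM in other CTRL cells. Its UMIs came from 60 of 276 DHEA members and from 26 of 279 CTRL members. Samd9l, an antiviral restriction factor, had log2 ratios of 1.27 in DHEA and 1.42 in CTRL, and Mov10, an RNA helicase active against viruses, had 51.0 CPM in DHEA members and 18.6 CPM in other DHEA cells, against 57.7 CPM in CTRL members and 20.4 CPM in other CTRL cells. Cd274, the gene of the inhibitory ligand PD-L1, had 1.07 in DHEA and 1.47 in CTRL. Tnf, an inflammatory cytokine, had 93.3 CPM in DHEA members and 37.8 CPM in other DHEA cells, against 56.4 CPM in CTRL members and 24.1 CPM in other CTRL cells. Cd86, a costimulatory ligand, had 1.23 in DHEA and 1.48 in CTRL, and Jaml, a T cell adhesion and costimulation receptor, had 1.20 in DHEA and 2.09 in CTRL. Several of these genes are known interferon or activation targets that the lists did not hold.

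Fewer genes were low in members, and none of them firmly. At least 2-fold lower in both libraries were 41 of 10486 genes (0.391%), and each of these 41 had between 1 and 15 UMIs summed over all members. The lowest by rule, which leaves out unnamed transcripts, were Paqr8, Cenpf, P4htm, Swsap1, Alms1, Ro60, Serpinc1 and Rfx5, each with 1 or 2 UMIs in the members of either library. Cenpf, a kinetochore gene of dividing cells, had log2 ratios of -1.94 in DHEA and -2.11 in CTRL from 1 UMI in the members of each library. With genes measured only from 5 times the minimum UMIs, 3 genes stayed at least 2-fold lower.

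Markers of CD8 T cells did not separate members from the rest. Cd8a stood at 423 CPM in DHEA members and 416 CPM in other DHEA cells, against 320 CPM in CTRL members and 351 CPM in other CTRL cells. Cd3e had log2 ratios of 0.04 in DHEA and -0.04 in CTRL. Ccr7, which guides naive and central memory cells to lymph nodes, had -0.19 in DHEA and -0.23 in CTRL. Of 33 listed markers of other cell types, 20 had 0 UMIs in the members of both libraries. Among them were Ms4a1 (B cells), Lyz2 and Csf1r (myeloid cells), Siglech (plasmacytoid dendritic cells), Ncr1 (NK cells) and Cd4. Those named were rare in other base cells too. Ms4a1 had 1 UMI there in each library, Siglech 0 in DHEA and 1 in CTRL, and Cd4 4 in DHEA and 3 in CTRL. Csf1r had 10 UMIs in other DHEA cells and 2 in other CTRL cells, Ncr1 0 and 21, and Lyz2 48 and 16. Their zeros therefore do not set members apart. Together the 33 summed to 443 CPM in DHEA members and 471 CPM in other DHEA cells, against 438 CPM in CTRL members and 423 CPM in other CTRL cells. Most of that sum came from Ighm, with 310 UMIs in DHEA members and 384 in CTRL members. Others with counts were Cst3 with 91 UMIs in DHEA members and 100 in CTRL members, Pacsin1 with 62 in DHEA and 93 in CTRL, Klre1 with 32 in DHEA and 21 in CTRL, and Cd79b with 27 in DHEA and 25 in CTRL. Trdc, the constant gene of the gamma delta T cell receptor, had 12 UMIs in DHEA members and 27 in CTRL members, log2 ratios over other cells of -0.04 in DHEA (upper bound 0.78) and 1.02 in CTRL (0.40 to 1.58). The CTRL value turned to -2.46 with the top 1% of cells and to -1.84 with Isg15 left out of the score. Tcf4, on the plasmacytoid dendritic cell list, had 9 UMIs in DHEA members and 8 in CTRL members, log2 ratios of 1.31 in DHEA (0.15 to 2.28) and 0.15 in CTRL. Without cells that carried at least 2 UMIs of such markers, 93 genes were at least 2-fold higher in members in both libraries, 60 of them on the interferon lists outside the score.

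The response was graded over the score. Members of both libraries together were ordered by score, cut into a top, a middle and a bottom set of 185 cells each, and set beside the next 555 base cells below the threshold, the 555 after these and the 9738 base cells with no score UMI. Rsad2 stood at 147, 54.9 and 30.7 CPM in the top, middle and bottom members, at 6.40 CPM in the next 555 cells, at 3.93 CPM in the 555 after these and at 0.773 CPM in cells with no score UMI. Bst2, which tethers budding viruses to the cell, stood at 760 CPM in the top, 346 CPM in the middle and 256 CPM in the bottom members, then at 197 and 173 CPM, and at 99.0 CPM in cells with no score UMI. Ccr7, which is no interferon gene, stayed between 177 and 260 CPM in all these sets, lowest in the top members. Cells just outside the threshold therefore carried part of the same response, and Rsad2 declined more steeply below the threshold than Bst2 did. The top set held 78 DHEA and 107 CTRL cells, and the next 555 cells below the threshold held 331 DHEA and 224 CTRL cells.

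**Figure D4:**
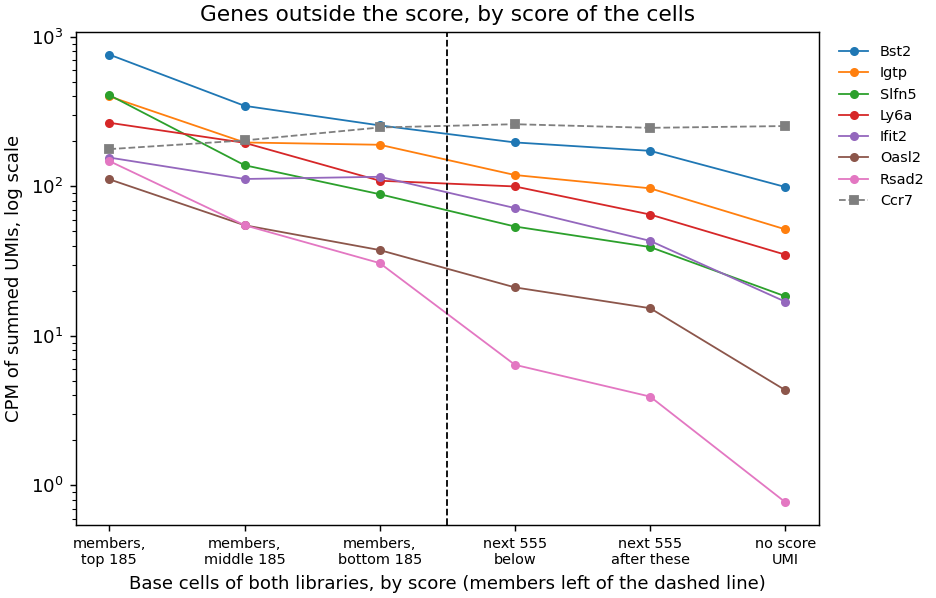
Level (y axis, CPM of summed UMIs, log scale) of 7 interferon response genes outside the score (solid lines) and of the naive cell gene Ccr7 (dashed line) in base cells of both libraries ordered by score (x axis), with members left of the dashed vertical line. Rsad2 spans 147 to 0.773 CPM from the top 185 members to cells with no score UMI, while Ccr7 stays between 177 and 260 CPM.

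Single cells showed the same shift with overlap. The summed antiviral list, without the score genes, had a median of 80.7 UMIs per 10000 in DHEA members and 55.7 in other DHEA cells, against 93.2 in CTRL members and 50.3 in other CTRL cells. Above the 90th percentile of the other cells of their library were 155 of 276 DHEA members (56.2%) and 225 of 279 CTRL members (80.6%). Both groups of members overlapped with other cells, the DHEA members more so.

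The ratio of members over other cells was smaller in the DHEA library for most interferon genes. Among the 142 measured genes outside the score it was larger in DHEA for 14 and larger in CTRL for 128, with a median difference of DHEA minus CTRL of -0.31 on the log2 scale. Over all 10486 genes it was larger in DHEA for 5301 and in CTRL for 5183. The exceptions included Dhx58 and Oas3, given above. Other DHEA cells near the threshold outnumbered those of CTRL, and the median depth of members was lower in DHEA, and the part of either in this pattern was not tested.

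Set directly against each other, DHEA members had lower levels of most interferon genes than CTRL members. Genes with at least 100 UMIs over all members were compared, 3891 in all, of which 84 (2.16%) were at least 1.5-fold higher in DHEA members and 118 (3.03%) at least 1.5-fold lower. Of 121 interferon genes outside the score in this comparison, 30 were higher in DHEA members at any size, where 48.9% of all genes were. At least 1.5-fold higher were 3 of the 121 and at least 1.5-fold lower were 20. Their median log2 ratio of DHEA over CTRL was -0.31 in members, and in other base cells the same genes had a median of 0.00 (-0.00280). Over all genes the median was -0.01 in members. The median of the interferon genes stayed negative under every alternative run, between -0.14 among the top 1% of base cells and -0.38 with members taken as the top 3% within each library. Members were chosen by the same pathway in both libraries, so these values describe the cells above the threshold and not the response of all cells.

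Slfn5 and Rnf213 had the largest differences among the interferon genes that were lower in DHEA members. Slfn5 had 174 UMIs in DHEA members and 430 in CTRL members. Its log2 ratio of DHEA over CTRL was -1.01 in members (-1.27 to -0.75) and -0.14 in other cells (-0.27 to -0.02). Rnf213 had 235 CPM in DHEA members and 475 CPM in CTRL members, a log2 ratio of -1.01 (-1.21 to -0.82), and -0.45 in other cells. Stat2 had -0.55 in members and -0.04 in other cells. Rsad2 had -0.67 in members (-1.09 to -0.26) and 0.40 in other cells (-0.17 to 0.97).

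By role, the median log2 ratio of DHEA over CTRL among members was -0.37 for the antiviral effectors, -0.49 for the ubiquitin, TRIM and ADP-ribosyltransferase list, -0.39 for the sensors, -0.43 for the inducible GTPases and -0.02 for MHC class I. In other base cells the same lists had medians of 0.00 (0.00169), -0.05, -0.02, -0.10 and 0.11. MHC class I was thus the interferon list with least difference between DHEA and CTRL members. Usp18 went to opposite sides, with -0.23 in members and 1.02 in other cells, and so did Socs1, with -0.35 in members and 0.63 in other cells. Both are inhibitors of the interferon pathway, but the opposite signs were not particular to inhibitors. Mx1 had -0.45 in members and 0.62 in other cells, Oasl1 -0.74 and 0.37, and Ifit1 -0.52 and 0.28. Usp25, another feedback gene, had -0.53 in members and -0.17 in other cells, and Slfn5, Rnf213 and Stat2 were also negative in both. The score holds Usp18 and Ifit1.

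**Figure D5:**
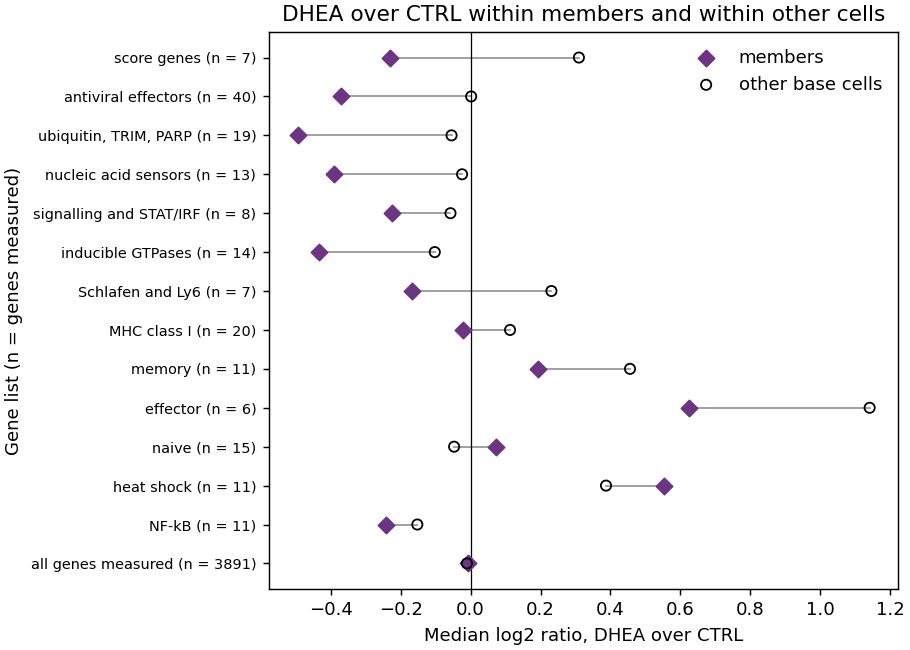
Median log2 ratio of DHEA over CTRL (x axis) within members (purple diamonds) and within other base cells (open circles) for each gene list (y axis, with the number of genes measured). Diamonds of the interferon lists lie left of their circles. So do those of the effector (0.63 against 1.14), memory (0.19 against 0.46) and NF-kB (-0.24 against -0.15) lists. The diamond lies right of the circle for heat shock (0.55 against 0.39) and naive genes (0.07 against -0.05).

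Some genes were higher in DHEA members. Ly6a was among the 3 interferon genes at least 1.5-fold higher, with a log2 ratio of DHEA over CTRL of 1.02 in members (0.77 to 1.28) and 1.77 in other cells (1.67 to 1.87). Cxcl10 had 0.79 in members and 0.72 in other cells. The genes with the highest ratios by rule were Hspa1a at 2.65 and Hspa1b at 1.73, which encode inducible HSP70 chaperones nearly alike in sequence, so that reads may be split, then the calcium-binding S100a4 at 1.53, the chemokine Ccl4 at 1.42, the chemokine receptor Cxcr3 at 1.25 and Mplkip at 1.20. In other base cells these had 1.81, 1.73, 2.20, 1.49, 1.25 and 0.28 in the same order. Of the S100a4 UMIs of DHEA members 60.3% came from 1 cell, and without cells that carried at least 2 UMIs of markers of other types its log2 ratio in members was -3.74 (lower bound -9.15, upper bound below 0). The lowest by rule were Ndufs8 at -1.08, Diaph2 at -1.03, Slfn5 and Rnf213 as above, Fosb at -0.95 and Atg4a at -0.93. All 6 of the highest genes were also higher in the other cells of the DHEA library, Mplkip by the least.

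Gzma and Gzmb differed from that pattern, and Gzmm did not (picked after their values were seen). Gzma, a protease of killer granules, had 23 UMIs in DHEA members (18.3 CPM) and 2700 in other DHEA cells (56.5 CPM). In CTRL it had 29 UMIs in members (18.8 CPM) and 171 in other cells (3.59 CPM). Its log2 ratio of DHEA over CTRL was -0.04 in members (-0.89 to 0.80) and 3.98 in other cells (3.75 to 4.21). Gzmb, the main death-inducing granzyme, had 10 UMIs in the members of each library, 1100 in other DHEA cells and 39 in other CTRL cells. The 2700 Gzma UMIs of other DHEA cells stood in 285 cells with up to 151 in 1 cell, while the 23 of DHEA members stood in 12 cells with up to 5. Gzmm, another granzyme, stood at 33.5 CPM in DHEA members and 16.2 CPM in CTRL members, a log2 ratio of 1.05 (0.30 to 1.82), and had 1.26 in other cells. Gzmk had 6 UMIs in DHEA members and 0 in CTRL members.

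Members held both cells called antigen-experienced and cells not called so. A cell was called antigen-experienced when, after thinning to 1500 UMIs, it had at least 3 UMIs of a panel of 19 genes. These memory and effector genes were on none of the interferon lists. Ccl5 is given as a description of this division and not as a check of it. It stood at 3645 CPM in DHEA members with the panel and 51.6 CPM in those without it. In CTRL members Ccl5 stood at 3128 and 92.6 CPM. Ccl5 was itself higher in members than in other cells, with log2 ratios of 0.16 in DHEA and 0.87 in CTRL. Whether the panel is independent of the score was not tested. The panel was found in 49.3% of DHEA members (136 of 276) and 35.5% of CTRL members (99 of 279), a difference of 13.8 points (5.57 to 21.8). In other base cells it was found in 45.6% in DHEA and 28.1% in CTRL, a difference of 17.6 points (16.2 to 18.9). Members lay near the limit often, with exactly 2 panel UMIs in 17.0% of DHEA and 17.6% of CTRL members and exactly 3 in 10.5% of DHEA and 11.8% of CTRL members. Members made up 3.02% of DHEA and 4.04% of CTRL cells with the panel, a difference of -1.02 points (-1.99 to -0.125), and 2.62% of DHEA and 2.90% of CTRL cells without it, a difference of -0.279 points (-0.876 to 0.325).

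The summed antiviral list was lower in DHEA members on both sides of that division. With the panel it stood at 9889 CPM in DHEA members and 11148 CPM in CTRL members, and without it 8946 CPM in DHEA members and 10244 CPM in CTRL members. The higher Ly6a was seen on both sides too, at 260 CPM in DHEA members and 202 CPM in CTRL members with the panel. Without the panel Ly6a stood at 276 CPM in DHEA members and 85.1 CPM in CTRL members, against 63.0 CPM and 17.3 CPM in other DHEA and CTRL cells without the panel. Ly6a was thus high in DHEA members with and without the panel. Cells without the panel could still carry up to 2 panel UMIs, and 45 of 276 DHEA members had no panel UMI.

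Members were compared with 4 other groups of 555 base cells, each the top 3% by UMIs per 10000 of another set of response genes. Heat shock cells, chosen by HSP70 genes, were 10.1% of DHEA members (28 of 276, 6.85 to 14.3%) and 4.62% of other DHEA cells (4.21 to 5.06%). In CTRL they were 3.23% of members (9 of 279, 1.49 to 6.04%) and 0.906% of other cells (0.715 to 1.13%). Cells chosen by NF-kB target genes were 16 of 555 members (2.88%) and 539 of 17957 other base cells, and cells chosen by early T cell receptor response genes (Egr and Nr4a) were 3.60% of members and 2.98% of other cells. Dividing cells, chosen by cell cycle genes, were 2.34% of members and 3.02% of other cells. In at least 1 of the 4 groups were 83 of 555 members (14.96%, 12.1 to 18.2%), against 11.1% of other base cells. Of these groups the heat shock cells alone had exact intervals for members and other cells that did not meet, in each library. Members and heat shock cells were both chosen by UMIs per 10000 of the cell, and the part of depth in their overlap was not tested.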

How the data were processed

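UMI counts per gene and barcode were deposited by the authors for 1 DHEA and 1 CTRL library; per the file headers they were made with Cell Ranger 8.0.1. Seurat 4.3.0 and the mm39 build stand in the submitters' processing notes, without a role for either. No source used here says whether barcodes were filtered before deposit. The libraries held 53020893 UMIs in 12128 DHEA barcodes and 51638782 UMIs in 9495 CTRL barcodes.

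The base cell limits removed barcodes in this order: under 200 genes 4 in DHEA and 3 in CTRL, mitochondrial share 453 and 282, under 1500 UMIs 1285 and 122, no CD8 UMI 471 and 387, no CD3 UMI 66 and 38. No doublet caller was run; an alternative left out the 5% of cells with the most UMIs. The 51 barcodes found in both libraries were kept. UMIs were summed over members and over other base cells of a library and scaled to CPM. Genes measured had at least 200 UMIs over all base cells (members over others) or 100 over all members (DHEA over CTRL). Log2 ratios carry exact intervals of the split of 2 counts, shares exact Clopper-Pearson intervals and differences of shares Newcombe intervals, all at 95%. A group at 0 UMIs entered a ratio at a floor of 3 UMIs. No ratio was formed where both counts were at most 3 UMIs. Cells were thinned to 1500 UMIs without replacement. With 1 library per group no test was possible.

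The members and the gene lists were chosen with earlier results of these data known. Genes were named by rule: the score genes, the 20 highest and 8 lowest members over others ratios taken from the library nearer 0 (transcripts with no gene name, ribosomal protein, mitochondrial, haemoglobin and immunoglobulin genes and receptor segments were skipped, here and in the DHEA over CTRL ranks), up to 4 genes per list, the 6 highest and 6 lowest DHEA over CTRL ratios in members, and a fixed panel of pathway and lineage genes; other names are marked where they stand. Promoter windows of 300 bases came from RefSeq (GRCm38.p6). Tools were Python 3.11.15 with numpy 2.4.6, scipy 1.17.1, pandas 2.3.3 and matplotlib 3.10.9. TMM factors, used in 1 alternative, came from edgeR 4.0.16 in R 4.3.3. The counting of called genes was tested on simulated data. All columns of the files were used. Results of a few genes are not reported here.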

Additional observations from a re-analysis of the deposited data

Results flagged for a closer look

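The median log2 ratio of members over other base cells went to opposite sides in the libraries for the effector gene list, which is why it is given here. That list (17 measured genes) had a median of -0.54 in DHEA and 0.55 in CTRL. In it Gzma had log2 ratios of -1.62 in DHEA and 2.39 in CTRL, and Gzmb had -1.53 in DHEA and 2.99 in CTRL. Any list gene without UMIs in the members of a library entered the median of that library at the floor of 3 UMIs. Summed over Gzma, Gzmb, Gzmk and Klrg1, members stood at 34.3 CPM in DHEA and 25.9 CPM in CTRL, against 95.9 CPM in other DHEA cells and 5.71 CPM in other CTRL cells. A UMI of these genes was found in 7.61% of DHEA members (4.77 to 11.4%) and 6.81% of CTRL members (4.15 to 10.4%), against 5.22% of other DHEA cells and 1.38% of other CTRL cells. The difference between the libraries was not tested.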

How the results depend on the processing

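Taking the top 1% of base cells gave 294 genes higher by 2-fold or more in members and 102 lower, 39 higher by 1.5-fold or more in DHEA members and 50 lower, a median interferon ratio of DHEA over CTRL of -0.14, and 11.4% of members in another response group. The top 5% gave 20 lower genes. Scoring after thinning, which ties 1039 cells at 2 or more UMIs, gave 54 higher genes, 42 of them on the interferon lists. Leaving Irf7 and Rtp4 out of the score gave 68 lower genes. Leaving out cells with markers of other types, which kept 4330 DHEA and 3508 CTRL base cells, gave 72 lower genes, 25 genes higher in DHEA members and a median of -0.16. With genes measured from 20 UMIs the counts were 1755 higher in members, 644 higher and 651 lower in DHEA members. Of the 1755, 89 were on the interferon lists. At that limit a gene without UMIs in members can pass as higher through the floor of 3 UMIs. The 1755 is therefore no count of genes found higher in members. With 5 times the minimum the counts were 3 lower in members, 7 higher and 9 lower in DHEA members, with a median of -0.17. The share of members, DHEA minus CTRL, ranged over settings from -0.775 points (thinned score with at least 3 score genes, added after seeing the data, as was the requirement of 3 score genes alone) to 0.0608 points (without cells with markers of other types); it was 0.0507 with the top 5%. Trdc in CTRL members over others had a log2 ratio of -2.46 (top 1%), -0.19 (thinned score), -1.84 (without Isg15) and -0.11 (thinned score with 3 genes), against 1.02 as reported. Ro60 in DHEA had 0.40 (without Isg15) and 0.11 (thinned score with 3 genes). Without cells with markers of other types, S100a4 in members had -3.74 for DHEA over CTRL, and Irf8 in CTRL members had -0.22. Why these values moved was not tested. Of 6198 values of named genes over all settings, 5605 stayed within their counting interval, 585 left it, and the 8 above changed sign from a ratio of called size. No paired analysis was possible because each group is 1 library. Few members and few UMIs per member limit low genes: a gene with 1 or 2 UMIs in members carries no firm direction.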

Other observations

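Effector and memory genes showed the mixed state of the members. Ccl5, a chemokine of memory CD8 T cells, stood at 1868 CPM in DHEA members and 1675 CPM in other DHEA cells, against 1300 CPM in CTRL members and 709 CPM in other CTRL cells. The memory list had a median log2 ratio of members over others of -0.03 in DHEA and 0.30 in CTRL, and the naive list -0.10 in DHEA and -0.17 in CTRL. The cell cycle list had -0.02 in DHEA and -0.46 in CTRL. Heat shock genes had 0.15 in DHEA and 0.06 in CTRL, with Hspa1b at 1.08 in both libraries. The nearly identical Hspa1a had 1.08 in DHEA but 0.24 in CTRL (-0.24 to 0.68), from 43 UMIs in CTRL members. Tnfsf10, which encodes the death ligand TRAIL, had 30 UMIs in DHEA members (23.9 CPM) and 14.2 CPM in other DHEA cells, against 60 UMIs in CTRL members (38.9 CPM) and 13.7 CPM in other CTRL cells. Daxx, a chaperone of histones with a role in cell death, had 1.15 in DHEA and 1.84 in CTRL. Esr1 had 0.80 in DHEA and 0.66 in CTRL, from 15 UMIs in DHEA members and 27 in CTRL members.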
